A study of Mus musculus with 18 samples.

Results

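The genes described here are 47 genes of mitosis and the mitotic spindle: cyclins and their kinase, other mitotic kinases, spindle checkpoint and kinetochore genes, kinesin motors, and genes of cytokinesis and of chromosomes. They were chosen by symbol from a fixed list, and all 47 were found among the 36528 entries of the table. All 47 were also among the 13075 genes tested, which reached 1 nRPKM in 3 or more of the 18 libraries. The unit nRPKM is read here as a read number scaled to gene length and library size with a further normalization. How that normalization was done is not given in the sources used here. Levels may therefore be compared between genes per length.

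The cells were CD4 T cells enriched from spleens of NZB/W F1 females, the hybrid of NZB and NZW that develops a lupus-like disease. The mice were 21 to 27 weeks of age with a proteinuria of 30 to 100 mg/dL, and no group came from a healthy strain. All cultures held IL-2 at 10 U/mL and an IgG1 antibody at 25 µg/mL for 48 hours. That antibody was anti-Ox40 in 9 libraries, directed at a costimulatory receptor of activated T cells, and an isotype control (control Ig) in the other 9. Beads carrying anti-CD3 and anti-CD28, which stand in for antigen and costimulation, were left out (no beads) or added at 0.1 (low beads) or 1 per cell (high beads). This gave 6 groups of 3 libraries, named here by antibody, bead dose and library number. The labels do not say whether the 3 libraries of a group came from separate mice, separate wells or a shared pool, so every p-value below covers only how much these libraries vary.

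As background, a resting T cell makes little of the mitotic machinery, and a stimulated T cell makes it late in the first cell cycle and again in each following one. Cyclin A and B with Cdk1 drive entry into mitosis, Aurora and Polo kinases build the spindle, and kinetochores attach chromosomes to microtubules. The checkpoint holds back the ubiquitin ligase that ends mitosis until every chromosome is attached, and cytokinesis then parts the daughter cells. Many of these genes are known to share promoter elements. A CHR element, written TTTGAA or TTCGAA, is bound by the MuvB complex with B-Myb or FoxM1, and a CCAAT box is bound by NF-Y.

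Promoter sequence was available from RefSeq (GRCm38.p6) for 40 of the 47 genes, as 42 windows from 250 bases before to 50 after an annotated start. Both strands were searched for TTTGAA, whose opposite strand reads TTCAAA, for TTCGAA, which reads alike on both strands, and for CCAAT, which reads ATTGG on the opposite strand. The motifs were counted independently, so that letters could be shared between them. A CHR element lay between 100 bases before and 50 after the start in 32 of the 42 windows (76.2%), against 8.59% of 32851 promoters of the same length and 5.49% of the promoters of tested genes. CCAAT was present in 32 windows (76.2%), against 37.4% of all promoters. More than 1 CCAAT was present in 22 windows (52.4%), against 11.7% of all promoters. A match describes these letters only.

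The 120 bases before the start are printed for 4 genes that carry both motifs and for 1 that carries neither, so that the layout can be seen. Capitals mark the CHR elements and CCAAT boxes on either strand. All 5 lie on GRCm38: Top2a at chr11:99024190-99024309 (minus strand), Kif11 at chr19:37376262-37376381 (plus strand), Cdk1 at chr10:69352913-69353032 (minus strand), Cdc20 at chr4:118437344-118437463 (minus strand) and Nuf2 at chr1:169531465-169531584 (minus strand).
Top2a: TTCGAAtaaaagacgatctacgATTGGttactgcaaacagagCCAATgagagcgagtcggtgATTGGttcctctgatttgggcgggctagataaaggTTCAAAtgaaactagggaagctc
Kif11: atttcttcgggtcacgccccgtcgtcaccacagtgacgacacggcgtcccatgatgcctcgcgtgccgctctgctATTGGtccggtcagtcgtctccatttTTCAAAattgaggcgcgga
Cdk1: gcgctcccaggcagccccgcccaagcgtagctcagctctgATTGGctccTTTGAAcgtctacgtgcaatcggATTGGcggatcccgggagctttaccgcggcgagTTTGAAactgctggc
Cdc20: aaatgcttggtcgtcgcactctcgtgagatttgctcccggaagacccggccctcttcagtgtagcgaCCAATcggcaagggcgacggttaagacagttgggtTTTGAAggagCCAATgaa
Nuf2: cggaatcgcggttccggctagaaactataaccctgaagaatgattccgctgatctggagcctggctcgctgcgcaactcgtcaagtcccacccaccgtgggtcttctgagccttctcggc
With the base before the start at -1, the CHR element nearest the start began at -23 in Top2a, -19 in Kif11, -15 in Cdk1 and -18 in Cdc20. The CCAAT boxes lay upstream of it in Top2a, Kif11 and Cdk1, and on both sides of it in Cdc20. Nuf2, an outer kinetochore gene, had neither motif anywhere in its 300 bases.

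The libraries held the defining genes of CD4 T cells: Cd4 ranged from 174 to 326 nRPKM and Cd8a did not exceed 0.433. Cd8a and Cd8b1 together summed to 4.36 to 6.95 nRPKM across the libraries, most of it from Cd8b1. The summed level of 6 NK cell markers was 25.1 to 123 nRPKM. By the steps between low values, 1 nRPKM over 1 kb stood for 26.4 to 46.0 reads depending on the library, which gives counting error only. Library 3 had the highest summed level of 8 B cell markers in every group, for example 33.2 against 7.69 and 8.50 nRPKM in control Ig without beads. The summed level of 8 myeloid markers was 231 to 264 nRPKM in control Ig without beads and 218 to 309 under anti-Ox40 without beads. With high beads it was 4.96 to 11.4 and 5.26 to 6.13 nRPKM. Genes of lung tissue, which CD4 T cells are not known to make, summed to at most 0.107 nRPKM in libraries without beads and reached 219 in those with beads. Control Ig library 2 at low beads stood apart from its group in the nuclear RNAs Malat1 and Neat1, with a sum of 294 against 611 and 645 nRPKM. The anti-Ox40 libraries at low beads had 352 to 380. No pair of libraries was identical.

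Without beads, the mitotic genes were low and unequal. Their summed level was 114, 126 and 118 nRPKM in the control Ig libraries 1 to 3, which was 0.0405% to 0.0447% of all nRPKM. Of the 47 genes, 28, 30 and 30 reached 1 nRPKM in these libraries. Cenpa, the histone variant that marks centromeres, had the highest level, at 18.8, 22.0 and 20.1 nRPKM. Mad2l1 of the spindle checkpoint was next, at 7.27 ± 0.189 nRPKM (SD, n = 3), followed closely by Top2a, the topoisomerase that untangles chromosomes, at 7.20 ± 0.509. The spreads of Mad2l1 and Top2a overlapped. Ccnb1, or cyclin B1, was the lowest at 0.171, 0.240 and 0.190 nRPKM. Of the 50-base stretches of its transcripts, 23.4% were shared with other genes, chiefly the pseudogene Ccnb1-ps, so the level of Ccnb1 is uncertain.

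**Figure D1:**
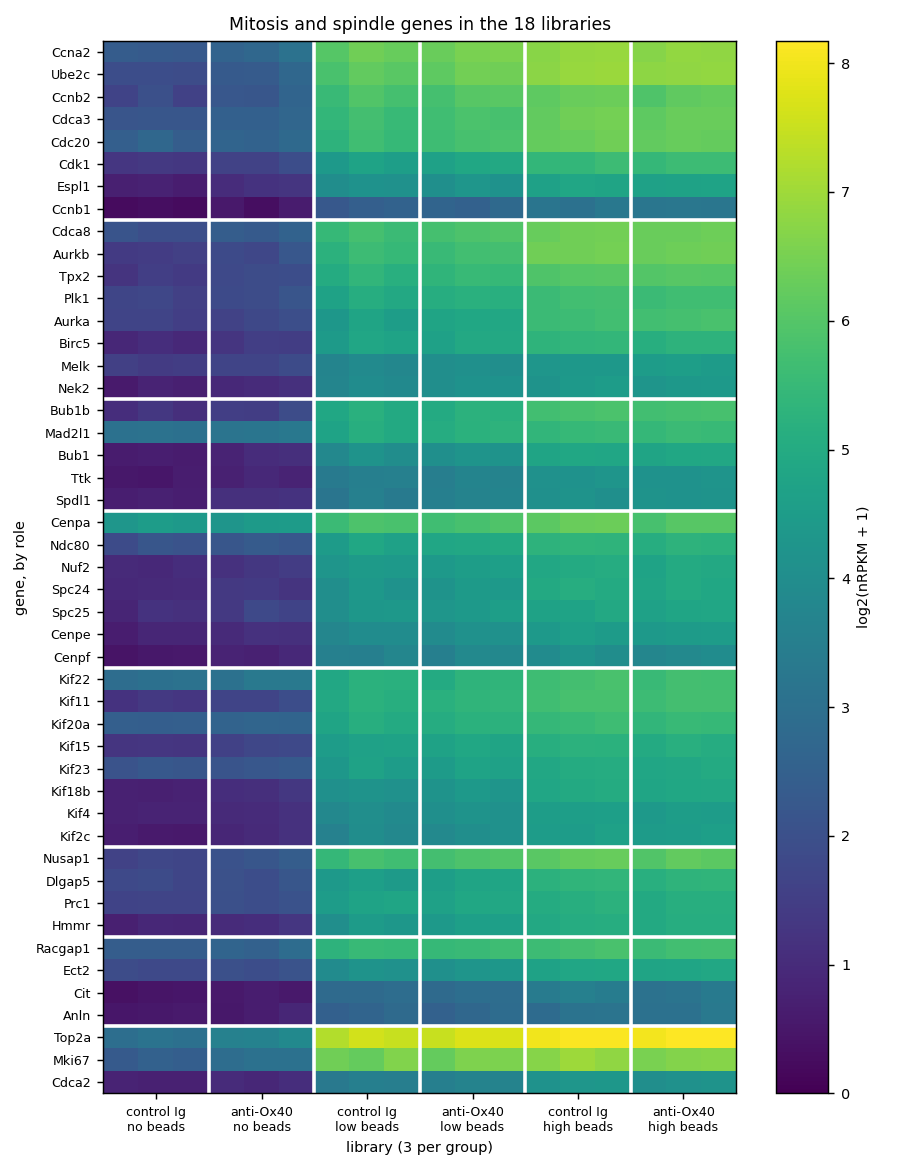
Levels of the 47 genes as log2(nRPKM + 1) in the 18 libraries, with genes grouped by role on the vertical axis and libraries by group on the horizontal axis. Levels step up from no beads to low beads for every gene, and the 3 libraries of a group look alike.

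With beads, all 47 genes rose. In control Ig, 47 of 47 were higher at low beads than without beads and 0 were lower, while 32.6% of all 13075 tested genes were higher and 29.8% lower. Their median change was 3.19 on the scale of log2(nRPKM + 1), against 0.01 for all tested genes. From low to high beads, again 47 of 47 were higher and 0 lower (32.5% of all genes lower, 40.0% higher), with a median change of 0.67. Between no beads and high beads 47 of 47 were higher and 0 lower (43.4% of all genes higher, 38.9% lower), with a median of 3.93. In each of these comparisons the groups did not overlap for any of the 47 genes, as was the case upward for 34.1%, 40.1% and 44.4% of all tested genes. A call here is a Benjamini-Hochberg adjusted p under 0.05 in limma, over all tested genes. In bulk RNA, a change in the number of cycling cells and a change in RNA per cell cannot be told apart. The fall of myeloid markers over the same doses is given above, and its part in the rise was not tested.

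Among the genes of mitotic entry and exit, Ccna2 (cyclin A2) stood at 4.21, 4.01 and 3.83 nRPKM without beads in control Ig. It was at 63.2, 83.4 and 76.0 at low beads and 105, 117 and 120 at high beads. All doses were apart from each other. Ube2c, the ubiquitin-conjugating enzyme of the anaphase-promoting complex, went from 2.85, 2.80 and 2.72 to 55.5, 73.4 and 66.4, and then to 108, 120 and 122 nRPKM. Its log2 change from no to high beads was 4.95 (SE 0.11; limma, adjusted p = 1.08e-15). Cdk1, the kinase partner of these cyclins, went from 1.53 ± 0.0566 to 23.2 ± 2.56 and 43.9 ± 3.66 nRPKM (SD, n = 3). Ccnb2 (cyclin B2) rose by 4.01 to low beads but by only 0.52 further to high beads.

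Top2a had the highest level of the 47 once beads were present, at 149, 193 and 177 nRPKM at low beads and 253, 279 and 280 at high beads. Its change of 5.05 (SE 0.10) from no to high beads was the largest of the 47 on the scale of log2(nRPKM + 1). By the ratio of means it was not: its mean without beads was 2.66% of that at high beads, against 2.07% in Aurkb. Mki67, which codes for the Ki-67 protein coating mitotic chromosomes, stood at 3.94, 4.81 and 4.38 without beads, 84.3, 74.7 and 97.2 at low and 102, 124 and 111 at high beads. Its further rise from low to high beads was small, at 0.39 (SE 0.10; limma, adjusted p = 0.00278).

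Of the kinases, Aurkb (Aurora B, of the chromosomal passenger complex) had the largest rise, from 1.61, 1.72 and 1.94 to 83.1, 83.4 and 87.9 nRPKM at high beads, a change of 4.96. Its mean without beads was 2.07% of its mean at high beads, the smallest share of the 47 together with that of the checkpoint kinase Bub1, also 2.07%. Aurka (Aurora A, of spindle poles) had the largest step from low to high beads, from 19.2, 26.1 and 22.4 to 46.7, 48.2 and 51.5 nRPKM, a change of 1.09 (SE 0.10). Nek2, a kinase of centrosome separation and the lowest of its class by its mean over all libraries, went from 0.635 ± 0.123 to 13.6 ± 1.24 nRPKM at low beads, and to 17.5, 20.7 and 21.8 at high beads. Cdca8 (borealin, a subunit beside Aurora B) went from 3.06 ± 0.245 to 47.6 ± 4.89 and 82.0 ± 4.59 nRPKM.

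Of the kinetochore and checkpoint genes, Cenpa and Mad2l1 had the 2 smallest bead responses of the 47. Cenpa rose from 18.8, 22.0 and 20.1 to 68.7, 78.3 and 80.3 nRPKM at high beads, a change of 1.85 (SE 0.10), and its mean without beads was 26.8% of that at high beads. It was the highest of the 47 without beads and the tenth at high beads. Mad2l1 changed by 2.43, from 7.26, 7.47 and 7.09 to 40.9, 44.0 and 45.9 nRPKM. Bub1b (BubR1, a checkpoint kinase-like protein), in contrast, changed by 4.61, from 1.25 ± 0.227 to 54.0 ± 2.92 nRPKM. Ndc80, the microtubule-binding subunit of the kinetochore, went from 3.15 ± 0.462 to 39.1 ± 0.980, and Cenpf, the lowest of the class, from 0.428 ± 0.0652 to 15.5 ± 1.48 nRPKM.

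Among kinesins, Kif11 (Eg5, which pushes spindle poles apart) went from 1.44 ± 0.138 to 53.2 ± 2.59 nRPKM at high beads. Kif22, a chromosome-bound motor, changed least in its class, by 2.74, from 6.54, 7.12 and 7.37 to 48.8, 52.5 and 56.3 nRPKM. Kif2c, which takes microtubules apart at centromeres, was low throughout, from 0.536 ± 0.0723 to 22.7 ± 1.57. Of the spindle microtubule genes, Nusap1 went from 2.23 ± 0.125 to 73.0 ± 5.30, and Hmmr from 0.789 ± 0.139 to 31.9 ± 2.08 nRPKM. Racgap1 and Anln of cytokinesis moved little between low and high beads, by 0.30 (SE 0.08) and 0.39 (SE 0.11). Racgap1 was at 38.3, 44.6 and 43.7 nRPKM at low beads and 48.1, 52.4 and 55.9 at high beads. Anln, an actin-binding scaffold of the cleavage furrow, had the lowest level of the 47 at high beads, at 7.29 ± 0.856 nRPKM.

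**Figure D2:**
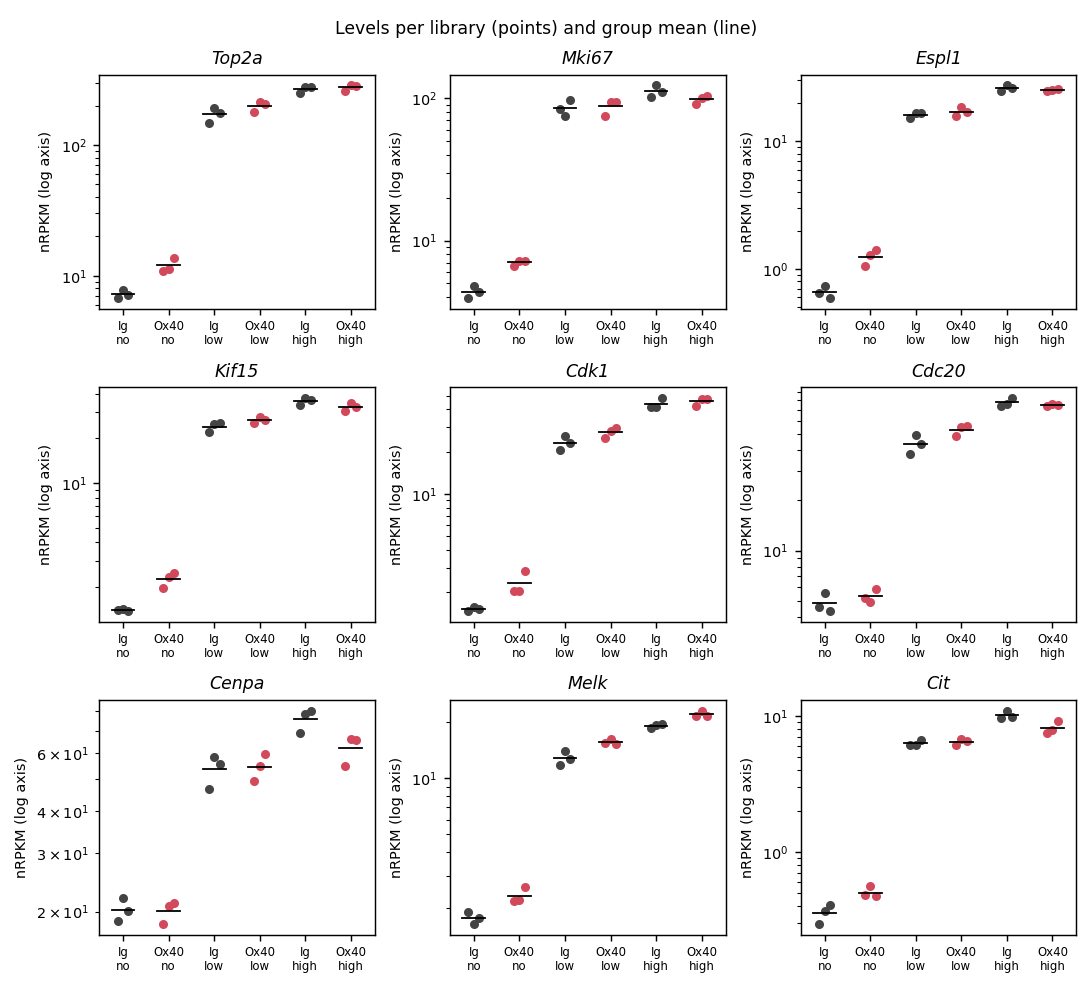
Levels in nRPKM on log axes in each library (points) and group means (lines) for example genes, with the 6 groups on the horizontal axis. The mean of Top2a climbs from 7.20 to 271 nRPKM between no and high beads in control Ig, and its 3 anti-Ox40 libraries without beads all lie above the 3 control Ig libraries.

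Anti-Ox40 without beads raised 9 of the 47 mitotic genes and lowered 0 (limma; 40 of 47 had an unadjusted p under 0.05). Across all 13075 genes this comparison called few: 0.138% were higher, that is 18 genes, and 0.00% lower, with 519 genes at an unadjusted p under 0.05. The 9 were Top2a, Kif15, Espl1, Spdl1, Tpx2, Kif18b, Kif11, Mki67 and Cdca8. The change was positive in 46 of 47 genes, with a median of 0.33 against -0.01 over all tested genes. In 39 of 47 genes every anti-Ox40 library was above every control Ig library, as was the case for 4.08% of all tested genes. The 8 genes whose groups overlapped were Aurka, Anln, Ccnb1, Cdc20, Kif22, Kif23, Cenpa and Ndc80. Of the 47 genes, 37, 39 and 42 reached 1 nRPKM in the anti-Ox40 libraries. The summed level of the 47 was 146, 155 and 178 nRPKM, or 0.0528% to 0.0635% of all nRPKM, above all 3 control Ig libraries.

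Top2a, on chromosome 11 from 98992947 to 99024199, was at 6.74, 7.75 and 7.11 nRPKM in control Ig and at 10.9, 11.3 and 13.8 under anti-Ox40. The groups did not overlap. Its change of 0.66 (SE 0.10, limma, adjusted p = 0.0232) was the largest of the 47 on the scale of log2(nRPKM + 1). By the ratio of means it was not: the anti-Ox40 mean was 167% of the control Ig mean in Top2a and 194% in Spdl1. Mki67, on chromosome 7 from 135689784 to 135716450, was at 3.94, 4.81 and 4.38 against 6.62, 7.23 and 7.23 nRPKM. Its change was 0.58 (SE 0.10; limma, adjusted p = 0.0412), and again no library of one group reached the other. Cdca2, the remaining gene of the chromosome class, which targets a phosphatase to chromatin, did not pass the test, with a change of 0.23.

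The 3 kinesins that rose were Kif15, Kif18b and Kif11. Kif15, a motor that backs up Kif11 in holding the spindle open, was at 1.40, 1.44 and 1.39 against 1.99, 2.35 and 2.48 nRPKM, a change of 0.44 (SE 0.07; limma, adjusted p = 0.0232). Kif18b, which works at the plus ends of astral microtubules, was at 0.669, 0.654 and 0.738 against 1.10, 1.15 and 1.50 nRPKM (0.41, SE 0.07). Kif11 was at 1.31, 1.58 and 1.44 against 2.17, 2.21 and 2.83 nRPKM (0.47, SE 0.08). In each of these genes the groups were apart, with anti-Ox40 higher. Kif23, a motor of the central spindle, differed by 0.05 and overlapped, at 3.24, 3.75 and 3.54 against 3.37, 3.69 and 3.94 nRPKM.

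Espl1 (separase, the protease that cuts cohesin) was the only gene of mitotic entry or exit to pass. It was at 0.651, 0.737 and 0.591 against 1.05, 1.28 and 1.42 nRPKM (0.44, SE 0.07, limma adjusted p = 0.0232). Ube2c missed the threshold, at 2.85, 2.80 and 2.72 against 4.03, 4.12 and 5.69 nRPKM (0.55, SE 0.11; limma, adjusted p = 0.0616). Ccnb2 had a larger change of 0.61 with a larger SE of 0.14, and did not pass (limma, adjusted p = 0.146). Cdc20, the activator of the anaphase-promoting complex, differed by 0.12 with overlapping groups.

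Tpx2, the spindle assembly factor that activates Aurora A, rose from 1.36, 1.84 and 1.60 to 2.47, 2.75 and 2.85 nRPKM (0.51, SE 0.08; limma, adjusted p = 0.0257). Cdca8 rose from 3.34, 2.90 and 2.93 to 4.26, 4.03 and 4.98 nRPKM (0.42, SE 0.08; limma, adjusted p = 0.0496). Aurka itself was at 2.23, 2.22 and 1.85 against 2.04, 2.41 and 2.89 nRPKM, with overlapping groups and a change of 0.15. Spdl1 (Spindly, which brings dynein to kinetochores) rose from 0.610, 0.666 and 0.627 to 1.18, 1.22 and 1.29 nRPKM (0.45, SE 0.07; limma, adjusted p = 0.0257). The SD was 0.0287 in control Ig and 0.0571 under anti-Ox40.

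No kinetochore, spindle microtubule or cytokinesis gene passed the limma test without beads, though 6 of 7, 4 of 4 and 3 of 4 had an unadjusted p under 0.05. Nusap1, which bundles spindle microtubules, came nearest, at 2.09, 2.33 and 2.27 against 3.15, 3.55 and 4.31 nRPKM (0.52, SE 0.10; limma, adjusted p = 0.0566). Cenpa was at 18.8, 22.0 and 20.1 against 18.4, 20.8 and 21.2 nRPKM, a change of -0.01, and was the only member not positive. As a share of the control Ig mean, the anti-Ox40 mean ranged from 99.3% in Cenpa to 206% in Ccnb1, with a median of 152%.

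These calls rested on few libraries. Without control Ig library 1 or 3, or without anti-Ox40 library 2 or 3, 0 of the 47 passed; 3 passed without control Ig library 2, and 12 without anti-Ox40 library 1. For the 9 genes the change itself stayed between 0.33 and 0.72 in these fits. The share of all tested genes called in them is not given here. Anti-Ox40 library 3 had the highest summed level of the 47 without beads (178 nRPKM) and also the highest myeloid sum (309 nRPKM). It had the fewest reads behind 1 nRPKM over 1 kb of the 18 libraries, at 26.4. Without library 3 of each group, where B cell markers peaked, 0 of 47 passed in the smaller fit, but 45 of 47 changes were positive and the median was 0.30. The 7 tested B cell markers had a median antibody effect of 0.04 without beads, and 0 passed. The part of the myeloid markers in the result was not tested.

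**Figure D3:**
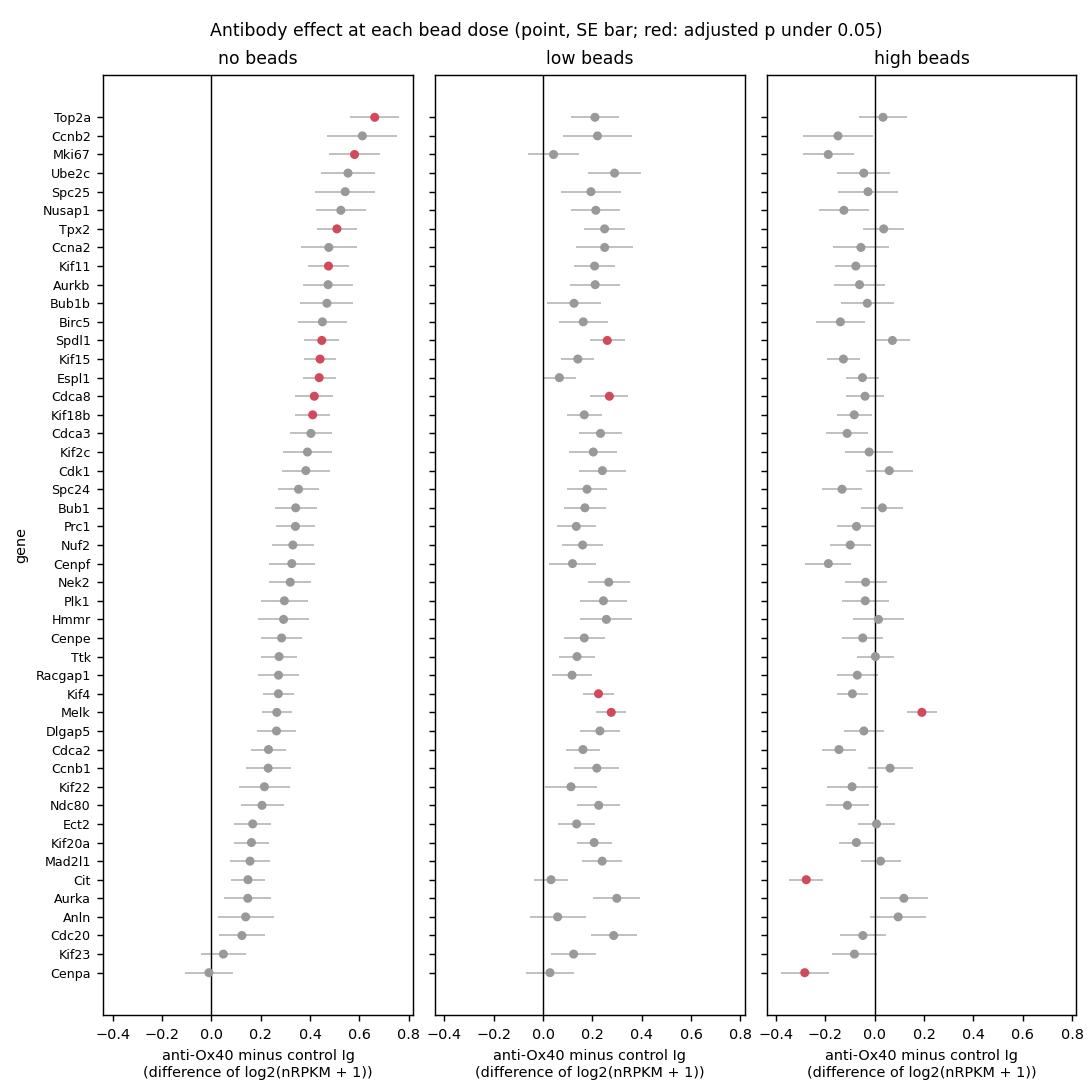
Anti-Ox40 minus control Ig as a difference of log2(nRPKM + 1), 1 row per gene, at each bead dose, with standard errors as bars and genes with an adjusted p under 0.05 in red. Without beads 46 of 47 points lie right of 0, at low beads all 47, and at high beads 13.

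At low beads, anti-Ox40 raised 4 of the 47 genes and lowered 0 (limma; 25 of 47, and 28.8% of all tested genes, had an unadjusted p under 0.05), while 6.15% of all tested genes were higher and 3.44% lower. The members' share of calls was therefore near that of all genes. All 47 changes were positive, with a median of 0.21 against 0.00 over all genes. The groups were apart in 7 of 47, against 13.1% of all tested genes. Melk, a kinase of dividing cells on chromosome 4 from 44300909 to 44364675, was at 11.8, 14.0 and 12.7 in control Ig and 15.6, 16.3 and 15.4 nRPKM under anti-Ox40. Its change was 0.28 (SE 0.06; limma, adjusted p = 0.0183), and its groups did not overlap. Cdca8 was at 43.6, 53.0 and 46.2 against 53.1, 58.4 and 60.8 nRPKM (0.27, SE 0.08; limma, adjusted p = 0.0419). Kif4, a chromosome-arm kinesin, was at 13.0, 15.4 and 14.0 against 15.9, 17.5 and 16.5 nRPKM (0.22, SE 0.06; limma, adjusted p = 0.0407). These 2 genes were also apart. Spdl1 was at 7.98, 10.7 and 9.38 against 10.6, 11.5 and 11.8 nRPKM (0.26, SE 0.07; limma, adjusted p = 0.0362), with 1 control library just above the lowest anti-Ox40 library. Top2a, at 149, 193 and 177 against 178, 214 and 208 nRPKM, overlapped and did not pass. Control Ig library 2 had the highest summed level of the 47 in its group, at 1584 against 1281 and 1484 nRPKM. Its nuclear RNA sum of 294 nRPKM, against 645 and 611 in control Ig libraries 1 and 3, was nearer the 352, 376 and 380 of anti-Ox40. Without it 23 of the 47 passed. In that fit every control Ig library at this dose exceeded every anti-Ox40 library in nuclear RNA, so antibody and nuclear RNA could not be told apart. The share of all tested genes called in it is not given here. Without control Ig library 1 or 3, or anti-Ox40 library 2, 0 passed, and without anti-Ox40 library 3 only 1 did. With the nuclear RNA score as a covariate, or without library 3 of each group, 0 passed, with medians of 0.15 and 0.18. The 6 lung genes were all higher under anti-Ox40 at this dose, with summed levels of 39.2 to 219 nRPKM against 0.014 to 26.3 in control Ig. Sftpc, a lung surfactant gene, differed by 2.55 (SE 0.62; limma, adjusted p = 0.0251). The part of lung RNA in the members' change was not tested.

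At high beads, few of the 47 genes passed for the antibody. Anti-Ox40 raised 1 gene and lowered 2, while 14.4% of all tested genes were higher and 11.6% lower. The median change was -0.05 against 0.00 over all genes, and 13 of 47 changes were positive. Melk rose again, from 18.6, 19.4 and 19.7 to 21.7, 23.1 and 21.5 nRPKM (0.19, SE 0.06; limma, adjusted p = 0.0316), and was the only member with every anti-Ox40 library above every control library (23.8% of all tested genes). Cit, the citron kinase of the midbody, on chromosome 5 from 115845224 to 116008953, fell from 9.63, 10.9 and 9.87 to 7.53, 7.87 and 9.23 nRPKM (-0.28, SE 0.07; limma, adjusted p = 0.00798). Cenpa fell from 68.7, 78.3 and 80.3 to 54.9, 66.0 and 65.5 nRPKM (-0.28, SE 0.10; limma, adjusted p = 0.0426). Cit and Cenpa, with Birc5 (survivin), were the 3 members whose anti-Ox40 libraries were all below the control libraries, against 19.5% of all tested genes. Top2a was at 253, 279 and 280 against 261, 288 and 283 nRPKM, within the spread. The rise of Melk passed in 1 of the 6 fits without a library, that without anti-Ox40 library 3, and also failed without library 3 of each group. Cit passed in 5 of 6, failing without anti-Ox40 library 1. Cenpa passed in 3 of 6, those without control Ig library 1 and anti-Ox40 library 2 or 3. Of 8 CD4 T cell markers, 5 were lower under anti-Ox40 at this dose, from -0.22 in Cd5 to -0.47 in Cd3g. Their summed level was 1159 to 1256 nRPKM against 1409 to 1514. Neat1 was lower too (-0.56, SE 0.14; limma, adjusted p = 0.00953), and with the nuclear RNA score as a covariate none of the 3 member calls passed, with a median of -0.13. The part of these genes in the result was not tested.

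Under anti-Ox40, beads again raised all 47 genes above the level without beads. From no beads to low beads 47 of 47 were higher and 0 lower (37.1% of all genes higher, 33.7% lower; median 3.07). From no beads to high beads 47 of 47 were higher and 0 lower (45.2% higher, 39.3% lower; median 3.54), from 1.58 in Cenpa to 4.43 in Aurkb. From low to high beads 41 of 47 were higher and 0 lower (40.3% higher, 31.2% lower; median 0.46). The 6 that did not pass were Mki67, Racgap1, Ccnb2, Cenpa, Cenpf and Nusap1, with changes of 0.11 to 0.22 and overlapping groups. Mki67, for example, was at 75.1, 94.7 and 94.2 nRPKM at low and 91.4, 100.0 and 103 at high beads. Aurka again had the largest step between these doses, at 26.4, 28.2 and 28.8 against 51.2, 52.8 and 55.2 nRPKM (0.91, SE 0.10). With the nuclear RNA score as a covariate, 24 of 47 passed from low to high beads in control Ig and 4 of 47 under anti-Ox40. The members' medians in that fit were 0.48 and 0.25. The share of all tested genes called in it is not given here. The nuclear RNA score fell with bead dose, from sums of 455 to 772 nRPKM without beads to 114 to 193 at high beads.

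The level at low beads, as a percentage of that at high beads, ranged in control Ig from 46.2% in Aurka to 80.9% in Racgap1, with a median of 61.8%. Under anti-Ox40 it ranged from 52.4% to 92.4% in the same genes, with a median of 72.1%. Anln was the only member with a lower share under anti-Ox40, at 71.4% against 73.2%. The difference of the antibody effect between high and low beads, which tests this, called 0 of 47 in either direction (limma; 20 of 47 at an unadjusted p under 0.05, as were 20.2% of all tested genes), against 1.47% of all genes higher and 1.70% lower, with a median of -0.25. Without control Ig library 2 at low beads, 9 of 47 passed, all lower, and the members' median was -0.30. The share of all tested genes called in that fit is not given here.

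**Figure D4:**
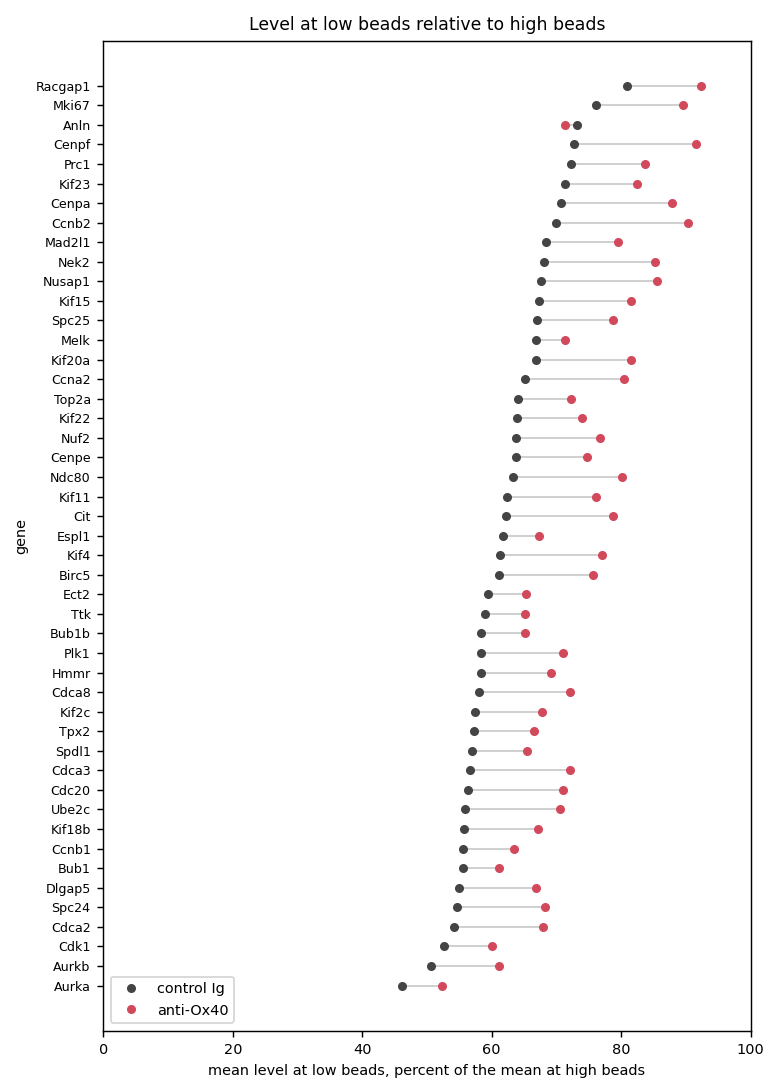
Mean level at low beads as a percentage of the mean at high beads for the 47 genes, in control Ig and under anti-Ox40. The anti-Ox40 point lies to the right of the control Ig point in every gene but Anln, and Aurka has the smallest share under both antibodies.

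The antibody effect itself differed between doses. Between high beads and no beads it was lower at high beads in 25 of 47 genes and higher in 0 (limma), against 4.70% of all tested genes lower and 6.40% higher. All 47 differences were negative, with a median of -0.38. All 3 genes of the chromosome class and 5 of the 8 genes of mitotic entry and exit were among the 25. Mki67 had the largest difference, with an antibody effect of 0.58 without beads and -0.19 at high beads (-0.77, SE 0.15; limma, adjusted p = 0.00629). Kif15 went from 0.44 to -0.13 (-0.57, SE 0.09; limma, adjusted p = 0.00324), and Top2a from 0.66 to 0.03 (-0.63, SE 0.14; limma, adjusted p = 0.0131). Aurka and Melk had differences near 0, at -0.03 and -0.07. The groups of these 2 doses share no library, and adding 1 to each value understates changes of genes near 1 nRPKM. The count was 16 without control Ig library 1 among those without beads. It was 14, 10 and 9 without control Ig library 2, control Ig library 3 and anti-Ox40 library 1 at high beads. In the smaller fit without library 3 of every group it was 0, with 44 of 47 differences negative and a median of -0.35. The shares of all tested genes called in these fits are not given here. Between low beads and no beads the difference passed in 0 of 47 genes either way (limma; 9 at an unadjusted p under 0.05, as were 17.6% of all tested genes), against 0.260% of all genes higher and 0.00765% lower.

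The genes with a CHR element near the start and those without it had similar medians. Without beads the 30 genes with the element had a median antibody effect of 0.34 with 8 called, and the 10 genes without it a median of 0.30 with 0 called. From no to high beads in control Ig their medians were 3.96 and 3.70, and every gene of both was called. Neither difference was tested.

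A further 147 tested genes of mitosis, cohesion, kinetochores, spindles and their regulators were listed for comparison. From no to high beads in control Ig, 133 were higher and 11 lower (43.4% of all tested genes higher, 38.9% lower), with a median of 1.85. Anti-Ox40 without beads raised 1 of the 147, Esco2, a cohesin acetyltransferase, from 0.536, 0.696 and 0.475 to 1.11, 1.32 and 1.46 nRPKM (0.55, SE 0.09; limma, adjusted p = 0.0235). The median of the 147 was 0.07, and 0.138% of all tested genes were higher. At low beads 15 were higher, among them Gtse1 (0.40), Apitd1 (0.34), Cks2 (0.31) and Cdc25a (0.29), and Nipbl, a cohesin loader, was lower (-0.16). Of all tested genes, 6.15% were higher and 3.44% lower at this dose. At high beads 9 were higher and 5 lower, while 14.4% of all tested genes were higher and 11.6% lower. Both shares are larger than those of the 147. Cdc25b, a phosphatase that activates Cdk1, fell from 59.5, 76.1 and 76.6 to 37.6, 42.5 and 43.9 nRPKM (-0.75, SE 0.08; limma, adjusted p = 2.66e-05), a larger change than in any of the 47.

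Of the listed transcription regulators of cell cycle genes, which include activators and repressors, none passed without beads. Foxm1 was at 2.02, 2.24 and 2.58 against 2.94, 2.91 and 3.38 nRPKM, with every anti-Ox40 library higher (0.32, SE 0.09; limma, adjusted p = 0.416). E2f1, E2f8, Mybl2 and E2f7 differed by 0.26, 0.30, 0.16 and 0.16. Mybl2 (B-Myb) rose under anti-Ox40 at low beads, from 5.68, 6.42 and 6.39 to 7.07, 7.69 and 7.40 nRPKM (0.23, SE 0.06; limma, adjusted p = 0.0348), and differed by 0.01 at high beads. E2f2, another member of the E2F family, fell at high beads from 29.7, 33.5 and 34.7 to 21.2, 25.6 and 25.6 nRPKM (-0.42, SE 0.07, limma adjusted p = 0.000854). With bead dose in control Ig, Foxm1 rose by 3.06 to low beads and by 0.41 further to high beads, and E2f7 by 2.01 with no further rise (-0.03).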

How the data were processed

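RNA was sequenced in 18 libraries, in 6 groups of 3. The authors deposited values in nRPKM, a unit named by the table itself and read here as RPKM with a further normalization. Reads were aligned to GRCm38 with GSNAP, per the submitters' processing notes; how reads were counted and scaled, and with which annotation, is not given in the sources used here. Reads behind 1 nRPKM were worked out from microRNA genes with 1 to 5 reads. In each library the factor was chosen to make the most of these values whole within 0.1 read. At the chosen factor 100% were whole, which is therefore no separate check.

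From these values, log2(nRPKM + 1) was tested with limma (version 3.58.1, under R 4.3.3; linear fit, contrasts and empirical Bayes moderation with a mean-variance trend) in 1 model over 6 group means with 12 residual degrees of freedom, for 13075 genes that reached 1 nRPKM in 3 or more libraries. The 12 comparisons were 2-sided, with Benjamini-Hochberg adjustment over all tested genes and a threshold of 0.05. The procedure was tested on simulated data. A fold change on this scale understates the change of low genes.

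Of the 47 genes, those called for the antibody or its difference between doses, the highest and lowest of each role, and those with the extreme bead responses are named. The members, roles, marker lists and this rule were chosen with earlier results of these data known. Alternatives changed the pseudocount, the filter, the trend, the libraries fitted and the scaling, added a covariate, or left out libraries. Promoter windows came from RefSeq, and 7 members without an entry are named only. Shared 50-base stretches were counted in GENCODE vM21 transcripts.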

Additional observations from a re-analysis of the deposited data

Results flagged for a closer look

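The antibody effect differed between high beads and no beads in 25 of the 47 genes, by the limma test of the difference itself (adjusted p under 0.05). The values below are the effect at high beads minus the effect without beads, on the scale of log2(nRPKM + 1), and all are negative. Among genes of mitotic entry and exit it was -0.76 in Ccnb2, -0.60 in Ube2c, -0.53 in Ccna2, -0.51 in Cdca3 and -0.49 in Espl1. Among kinases and their partners it was -0.59 in Birc5, -0.53 in Aurkb, -0.47 in Tpx2 and -0.46 in Cdca8. The checkpoint genes Bub1b and Spdl1 had -0.50 and -0.38. The kinetochore genes Spc25, Cenpf, Spc24 and Nuf2 had -0.57, -0.51, -0.49 and -0.43. The kinesins Kif15, Kif11, Kif18b and Kif4 had -0.57, -0.55, -0.49 and -0.36. The spindle microtubule genes Nusap1 and Prc1 had -0.65 and -0.41, and Cit of cytokinesis had -0.43. The chromosome genes Mki67, Top2a and Cdca2 had -0.77, -0.63 and -0.38. None of the 25 passed without library 3 of every group, where the B cell markers were highest. With those libraries left out, 44 of 47 differences were negative, and the median was -0.35 against -0.38 with all libraries.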

How the results depend on the processing

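No paired analysis was possible because neither the labels nor the columns carry a replicate number. The calls for beads against no beads, all 47 genes under either antibody, held in every alternative run. The antibody calls did not, and the cause was not tested. The counts below, and those given earlier from fits without a library or with the covariate, are of members only. The share of all tested genes called in the same fits is not given here, so a change in these counts is not read as particular to the members. Without beads, 9 genes were higher. That count was 29 with a pseudocount of 0.1, 3 without a filter, 5 without the trend, 0 in a fit of only the groups compared, 15 with the nuclear RNA score as covariate, and 0 without library 3 of each group, the highest in B cell markers (the B cell libraries). Leaving out 1 library at a time gave 0 to 12. At low beads, 4 were higher: 2, 1 and 7 with a pseudocount of 0.1, no filter and a filter of nRPKM 5, 0 in a fit of only these groups, with the covariate and without the B cell libraries, and 0 to 23 without 1 library. At high beads, 1 was higher: 0 with a pseudocount of 0.1, no filter, the covariate or without the B cell libraries, and 0 to 1 without 1 library. There 2 were lower: 1 without a filter, without the trend and without the B cell libraries, 0 in a fit of only these groups and with the covariate, and 0 to 2 without 1 library. From low to high beads the covariate left 24 of 47 in control Ig and 4 of 41 under anti-Ox40. Under anti-Ox40, 5 of the 47 changes were negative with the covariate, while all were positive in the main fit. Among the 5 were Ccna2 and Kif23, which had passed in the main fit, at -0.0685 and -0.0031. The difference between high and no beads, lower in 25, was lower in 14 without a filter, 0 without the B cell libraries and 9 to 27 without 1 library. That between low and no beads, lower in 0, was lower in 1 with a pseudocount of 0.1 and 0 to 2 without 1 library. That between high and low beads, lower in 0, was lower in 3 with the covariate and 0 to 9 without 1 library. With 1 library left out, a group of 2 shares the spread of the other groups. Without the B cell libraries every group was smaller, so a loss of calls there cannot be tied to B cell markers. A median near 1.5 nRPKM without beads, with 3 libraries a group, limits the precision there.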
